A study of Homo sapiens with 8 samples.

Results

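The core cyclin and cyclin-dependent kinase (CDK) genes described here are CCND1, CCND2, CCND3, CCNE1, CCNE2, CCNA2, CCNB1, CDK2, CDK4 and CDK6. They were taken by symbol, each matched to 1 Ensembl gene, so they are 10 of the 58051 genes of the deposited table, and the rule sets no threshold on a measured value. RNA was sequenced from PC3, a prostate cancer line of human origin that lacks functional p53, after lentiviral transduction and puromycin selection. The control cells carried a scramble hairpin (shScramble, 4 samples) and the silenced cells carried the sh2 hairpin against IER5L (shIER5L, 4 samples). A single hairpin was used for all shIER5L samples, so the loss of IER5L and any other effect of that hairpin cannot be told apart. The labels call the samples biological replicates. The methods describe 4 plates of cells for each experiment, with RNA and protein samples seeded in parallel. Whether the replicate plates came from separate cultures is not stated, so p-values measure the spread between these samples. Values for single samples are given below in the order of replicates 1 to 4.

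Cyclins are regulatory subunits that switch on CDKs, and the pairs act in turn through the division cycle. D-type cyclins with CDK4 or CDK6 begin the phosphorylation of the retinoblastoma (RB) pocket proteins, E-type cyclins with CDK2 complete it and start DNA replication, cyclin A2 with CDK2 acts through S phase, and cyclin B1 with CDK1 drives mitosis. D-type cyclins answer to growth signals, while E-, A- and B-type cyclins rise and fall with the cycle itself. PP2A, the phosphatase that the IER family is known to regulate, removes phosphate from pocket proteins and from many CDK substrates. In RNA from whole cultures, a change in the share of cells in a phase and a change in transcript per cell cannot be told apart.

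Reads counted on genes summed to between 21512128 and 24662190 per sample. CPM here are counts divided by the library size after its scaling by the TMM method, on the usual scale of that unit. The targeted gene IER5L had 83, 154, 140 and 72 counts with shScramble, against 62, 72, 49 and 29 with shIER5L. Its log2 fold change was -1.08 (SE 0.248, adjusted p = 0.0212 in edgeR's quasi-likelihood test after Benjamini-Hochberg correction for the 16959 genes tested). That call was lost without shScramble replicate 2 (adjusted p = 0.0937), shScramble replicate 3 (0.0780) or shIER5L replicate 3 (0.0891), and exons of 2 genes on the opposite strand cover part of IER5L. The epithelial markers KRT8, KRT18, KRT19 and EPCAM were expressed in every sample, at 25.7 CPM or more, and KLK3 was at 0 counts. Of other cell types, PTPRC had at most 4 counts, VWF 2 and COL1A1 14, while COL3A1 was at 3.26 to 5.38 CPM and PECAM1 at 7.24 to 10.4.

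CCND1 and CDK6 moved in opposite directions and were the members that passed the test. CCND1 fell by 17.7% and CDK6 rose by 24.9% in shIER5L cells, and for each gene the samples of the conditions did not overlap. Of the 10 members, 9 had enough counts to be tested, and 2 of these (22.2%) had an adjusted p under 0.05, against 3.93% of all genes tested. One was higher, against 2.46% of all genes, and 1 lower, against 1.46%. The members were chosen with earlier results of these data known, so their share is not independent of these data. Samples of the conditions did not overlap for 2 members, against 10.9% of all genes tested. No member was a differentially expressed gene (DEG), which by the thresholds of the study's methods needs an adjusted p under 0.05 and a log2 fold change of 0.5 or more in either direction, as 0.79% of all genes tested had. At an unadjusted p under 0.05 there were 3 of the 9 members, CCND1, CCNE2 and CDK6, against 16.5% of all genes tested, and DESeq2, limma voom and edgeR's likelihood ratio and exact tests also gave 0 DEGs among the members. The median log2 fold change was -0.01 over the 9 members and 0.00 over all genes tested.

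The levels of the genes can be compared with each other as CPM per kb of exon, with the exon length as deposited. In shScramble cells CCNB1 stood highest, at 121.0 ± 2.20 (SD, n = 4), followed by CCND1 at 68.4 ± 2.93, CCNA2 at 44.2 ± 2.06 and CDK4 at 19.4 ± 0.883. CDK6, at 15.5 ± 0.603, and CDK2, at 14.8 ± 1.21, came next and overlapped each other. CCNE2, at 6.44 ± 0.744, and CCND3, at 5.80 ± 0.427, also overlapped, and CCNE1 was at 4.10 ± 0.573. CCND2 was last, at 0.0234 ± 0.0205. All other neighbours in this order were separated by every sample. On this length, the order was the same in shIER5L cells except at 2 places: CDK6, at 19.4 ± 1.17, stood above CDK4, at 18.8 ± 0.865, with overlapping samples, and CCND3, at 5.92 ± 0.436, above CCNE2, at 5.56 ± 0.214, also with overlapping samples.

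**Figure D1:**
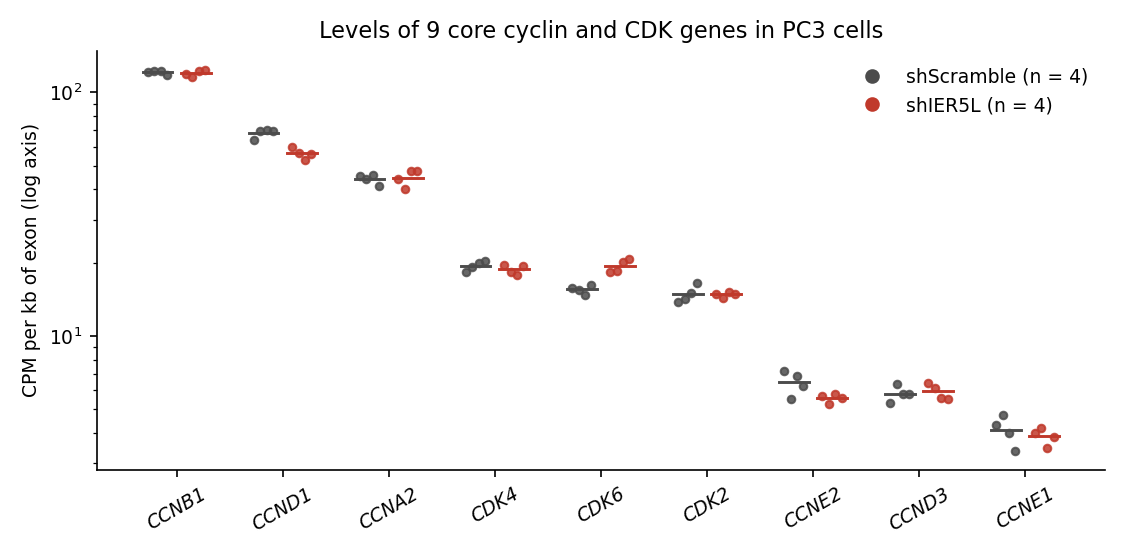
Levels of 9 members as CPM per kb of exon on a log axis, in the order of their shScramble means. Points are the 4 samples of each condition and the short lines their means. CCND2, at 0.0234 in shScramble cells, is left out. The CCND1 samples of shIER5L cells lie below and the CDK6 samples above all shScramble samples of the same gene.

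This order rests on the length used for each gene. Exons of a gene on the opposite strand cover 43.2% of the exon length of CDK4, 37.1% of CCNE2, 16.8% of CDK2, 10.3% of CCND1 and 9.08% of CCNA2, and 1.76% or less of the other members. The counting command carries neither a strand option nor the option to keep reads that touch more than 1 gene, so reads on such shared bases were left out and these 5 genes are understated per kb. Over the bases that are not shared, CDK4 was at 34.2 CPM per kb in shScramble cells, CDK2 at 17.8 and CDK6 at 15.6, and CDK2 and CDK6 traded places. In shIER5L cells CDK4 was then at 33.0 ± 1.52, above CDK6 at 19.5 ± 1.18 in every sample, and CCNE2 at 8.84 ± 0.341, above CCND3 at 5.94 ± 0.438 in every sample, so that neither of the 2 exchanges seen on the full exon length was present. On the length of the longest annotated coding transcript, CDK4 was at 33.0, CDK2 at 25.8 and CDK6 at 16.3, and CCND3, at 14.05, stood above CCNE2, at 8.51. In shScramble cells CCNB1, CCND1, CCNA2 and CDK4 kept places 1 to 4 on each of these lengths.

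Among the D-type cyclins, CCND1 (ENSG00000110092; chromosome 11 of hg38, 69641087 to 69654474, plus strand) encodes cyclin D1. It had 309.1, 334.9, 339.5 and 337.0 CPM with shScramble, against 289.4, 272.9, 254.8 and 270.5 with shIER5L. The highest shIER5L sample lay below the lowest shScramble sample. The means were 330.2 ± 14.1 and 271.9 ± 14.2 CPM (SD, n = 4 each), which gives a log2 fold change of -0.28 (SE 0.0470, 95% interval -0.38 to -0.18, adjusted p = 0.00273 in edgeR's quasi-likelihood test). By its unadjusted p it ranked 132 among the 16959 genes tested. With 1 sample left out, the log2 fold change lay between -0.31 and -0.26 and the adjusted p did not exceed 0.0155.

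CCND3 (ENSG00000112576; chromosome 6, 41934933 to 42050357, minus strand), which encodes cyclin D3, had 30.8, 36.8, 33.4 and 33.5 CPM with shScramble, against 37.4, 35.5, 32.4 and 32.1 with shIER5L. These samples overlapped throughout, and the log2 fold change was 0.03 (95% interval -0.13 to 0.19, adjusted p = 0.903 from the same test). Its sign turned to -0.01 without shScramble replicate 1 and without shIER5L replicate 1. CCND2 (ENSG00000118971; chromosome 12, 4273772 to 4305350, plus strand), which encodes cyclin D2, had 2, 6, 8 and 0 counts with shScramble, against 2, 2, 4 and 6 with shIER5L. It did not pass the filter on low counts and was not tested, and both conditions lie close to the floor of 3 counts per library, which is 0.120 to 0.141 CPM in these libraries. Of the summed CPM per kb of the 3 D-type genes, CCND1 made up 91.6% to 92.4% in the shScramble samples and 90.2% to 91.0% in the shIER5L samples. The ratio of CCND1 to CCND3 per kb was 11.8 ± 0.600 in shScramble and 9.53 ± 0.410 in shIER5L cells (SD, n = 4 each), and the samples of the conditions did not overlap. This share and this ratio rest on the deposited exon length. On the longest annotated coding transcript, CCND1 was at 77.9 and CCND3 at 14.05 CPM per kb in shScramble cells, which lowers both. Over bases that are not shared, CCND1 was at 76.2 and CCND3 at 5.82 in these cells, which raises both.

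CDK4 and CDK6 are the catalytic partners of the D-type cyclins and are inhibited by the INK4 proteins. CDK6 (ENSG00000105810; chromosome 7, 92604921 to 92836594, minus strand) had 193.2, 188.6, 181.5 and 199.0 CPM with shScramble, against 224.7, 227.0, 247.2 and 253.5 with shIER5L. All shIER5L samples were above all shScramble samples. The means were 190.6 ± 7.40 and 238.1 ± 14.4 CPM (SD, n = 4 each), which gives a log2 fold change of 0.32 (SE 0.0492, 95% interval 0.22 to 0.43, adjusted p = 0.00130 in edgeR's quasi-likelihood test), and it ranked 98 by its unadjusted p. With 1 sample left out, the log2 fold change lay between 0.29 and 0.35 and the adjusted p did not exceed 0.00843.

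CDK4 (ENSG00000135446; chromosome 12, 57747727 to 57756013, minus strand) had 57.9, 61.0, 63.3 and 64.2 CPM with shScramble, against 61.96, 58.0, 56.2 and 61.4 with shIER5L. The conditions overlapped, and the log2 fold change was -0.05 (95% interval -0.17 to 0.07, adjusted p = 0.721 from the same test). The exons that it shares with TSPAN31 on the other strand were not counted for either gene. Within samples, the ratio of CDK6 to CDK4 per kb was 0.801 ± 0.0496 in shScramble and 1.04 ± 0.0841 in shIER5L cells, and the ratio of CCND1 to CDK6 was 4.40 ± 0.293 and 2.91 ± 0.303 (SD, n = 4 each). Over bases that are not shared, the ratio of CDK6 to CDK4 was 0.458 ± 0.0284 and 0.593 ± 0.0481, and so stayed under 1. For these ratios the samples of the conditions did not overlap. These ratios follow from the values above and are not further tests.

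**Figure D2:**
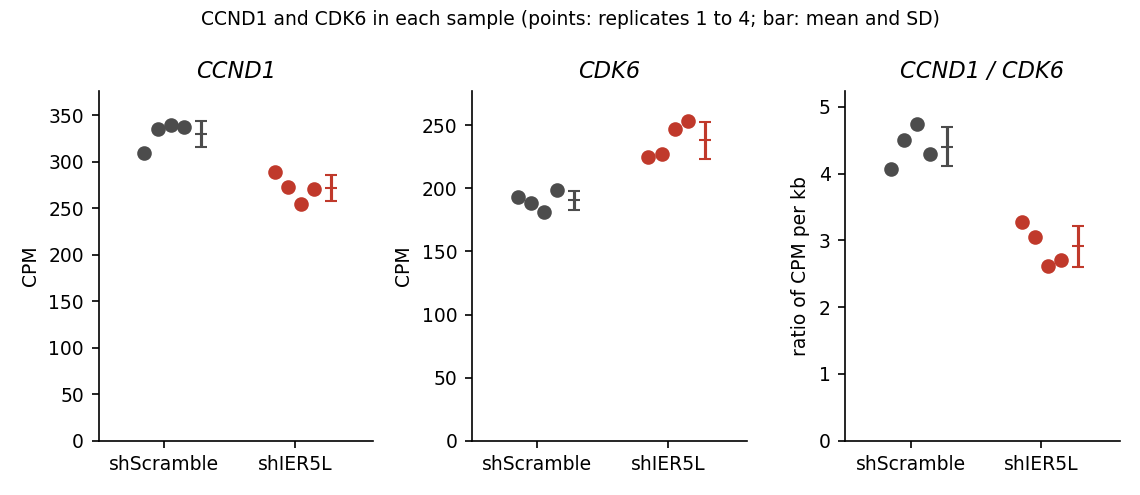
CPM of CCND1 and of CDK6 and the ratio of their CPM per kb in each sample, with axes from 0. Points are replicates 1 to 4 of each condition, and the bar beside them gives the mean and SD. CCND1 is at 271.9 against 330.2 CPM, CDK6 at 238.1 against 190.6, and the ratio at 2.91 against 4.40, shIER5L against shScramble.

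The hairpin of the silenced cells and the places where CDK6 holds parts of it are shown because a hairpin can also lower transcripts that match its guide strand in part. CDK6, at a log2 fold change of 0.32, was higher in shIER5L cells. Searched on the transcript strand of the 3' untranslated region (3' UTR) were ACATCTC (hairpin bases 11 to 17), then CATCTCA (bases 12 to 18), and finally TCTCAAA (bases 14 to 20), which overlap in the hairpin. TCTCAAA pairs with bases 2 to 8 of the guide strand if that strand is the exact reverse complement of the listed sequence. ACATCTC and CATCTCA cover those bases only in part. Both were chosen from earlier expression results of these same data, so where they occur is no independent test of the hairpin. The CDK6 windows printed here hold ACATCTC or CATCTCA, and the TCTCAAA sites of CDK6 are given below by position only. In the hairpin, capitals mark bases 11 to 18, and in the CDK6 windows of 30 bases, capitals mark the heptamer (GENCODE v44 transcripts, 5′ to 3′ on the minus strand of hg38, with the heptamers at chr7:92612571-92612577 and chr7:92606499-92606505).
sh2 IER5L: gacgcgtccaACATCTCAaac
CDK6, first window: gaatgaaagggCATCTCAgcctctctgaac
CDK6, second window: cccacacctctACATCTCtgtcccctgtat

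The longest annotated CDK6 3' UTR spans 10219 bases, by far the longest of the members, and holds CATCTCA at base 2563, ACATCTC at base 8635 and TCTCAAA at bases 575 and 6921, counted from the first base after the stop codon. The 3' UTR of CCND1, the member that fell, spans 3192 bases and holds none of these 3 heptamers, and neither annotated coding transcript of CCND1 has CATCTCA or ACATCTC there. In the other members CATCTCA and ACATCTC were also absent, and TCTCAAA occurred once each in CCND2 and CCNE2. Of all 15 heptamers of the hairpin, CDK6 held 8, CCND2 7, CCND1 2, CCNE2 1 and the other members 0. This count was not set against other genes, and CDK6 (10219 bases) and CCND2 (5344 bases) have the longest 3' UTRs of the members. Of 12701 genes tested with a 3' UTR of at least 30 bases, 18.9% held CATCTCA, 11.4% ACATCTC and 28.4% TCTCAAA. Among the 244 3' UTRs within 20% of the length of that of CDK6, the shares were 69.7%, 43.4% and 92.2%, and 32.8% held both CATCTCA and ACATCTC. Among the 1848 within 20% of the length of that of CCND1, 34.8% held CATCTCA or ACATCTC and 45.6% held TCTCAAA. A match gives only the letters, and the part of the hairpin in the values of CDK6 or CCND1 was not tested.

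**Figure D3:**
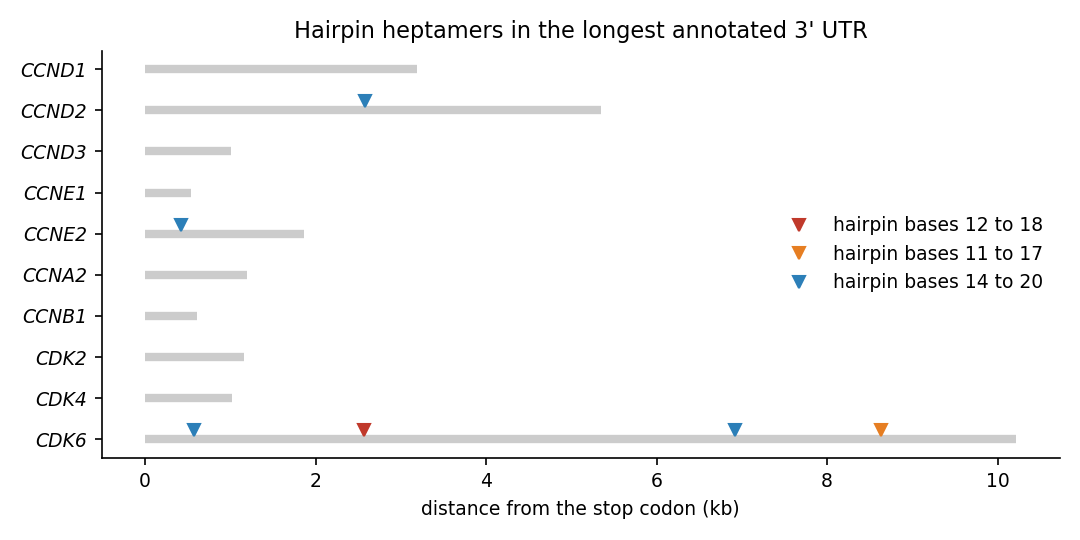
Longest annotated 3' UTR of each member in GENCODE v44, drawn to scale as distance from the stop codon in kb. Triangles mark the heptamers by the hairpin bases they match. CDK6 holds 4 of the 6 matches shown, and CCND1 none.

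The E-type cyclins bind CDK2 at the start of S phase. CCNE2 (ENSG00000175305; chromosome 8, 94879770 to 94896678, minus strand), which encodes cyclin E2, had 31.7, 24.2, 30.02 and 27.4 CPM with shScramble, against 24.9, 23.1, 25.3 and 24.4 with shIER5L. Replicate 2 was the lowest of the shScramble samples and lay within the shIER5L range. The means were 28.3 ± 3.27 and 24.4 ± 0.941 CPM (SD, n = 4 each). The log2 fold change of -0.21 (95% interval -0.39 to -0.03, unadjusted p = 0.0235) missed the threshold of edgeR's quasi-likelihood test once adjusted over all genes (adjusted p = 0.208). With 1 sample left out it lay between -0.28 and -0.16, and the adjusted p stayed at 0.0994 or above under every alternative tried. Exons of INTS8 on the other strand cover 1629 bases of CCNE2.

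CCNE1 (ENSG00000105173; chromosome 19, 29811898 to 29824308, plus strand), which encodes cyclin E1, had 10.9, 12.1, 10.2 and 8.60 CPM with shScramble, against 10.1, 10.7, 8.86 and 9.82 with shIER5L. The shIER5L samples lay within the shScramble range, and the log2 fold change was -0.08 (95% interval -0.32 to 0.16, adjusted p = 0.800 from the same test). CCNE1 had 192 to 286 counts per sample and the widest interval of the members tested. CDK2 (ENSG00000123374; chromosome 12, 55966769 to 55972784, plus strand), the kinase of the E-type cyclins and of cyclin A2, had 53.6, 55.0, 58.4 and 64.2 CPM with shScramble, against 58.1, 56.0, 59.2 and 57.6 with shIER5L. Its log2 fold change was 0.00 (95% interval -0.13 to 0.13, adjusted p = 0.996 from the same test), and its sign depended on the fit.

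Cyclin A2 is made from S phase on and cyclin B1 towards mitosis, and both are destroyed through the anaphase-promoting complex. CCNA2 (ENSG00000145386; chromosome 4, 121816444 to 121823933, minus strand) had 127.4, 123.0, 128.4 and 115.7 CPM with shScramble, against 123.3, 111.8, 132.7 and 132.9 with shIER5L. Its log2 fold change was 0.02 (95% interval -0.11 to 0.14, adjusted p = 0.926 in edgeR's quasi-likelihood test). CCNB1 (ENSG00000134057; chromosome 5, 69167010 to 69178245, plus strand) had 311.7, 312.1, 312.8 and 301.0 CPM with shScramble, against 305.1, 296.2, 312.9 and 317.0 with shIER5L. With a log2 fold change of -0.01 (95% interval -0.09 to 0.08, adjusted p = 0.957), CCNB1 had the narrowest interval of the members tested. For CCNA2 and CCNB1 the samples of the conditions overlapped, and the ratio of CCNA2 to CCNB1 per kb was 0.365 ± 0.0113 in shScramble and 0.371 ± 0.0191 in shIER5L cells (SD, n = 4 each).

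The 95% intervals of all 9 members tested lay within 0.5 of 0 on the log2 scale. For CCND3, CDK4, CCNE1, CDK2, CCNA2 and CCNB1 they included 0, and for CCNE2 the interval excluded 0 before adjustment for the number of genes tested.

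**Figure D4:**
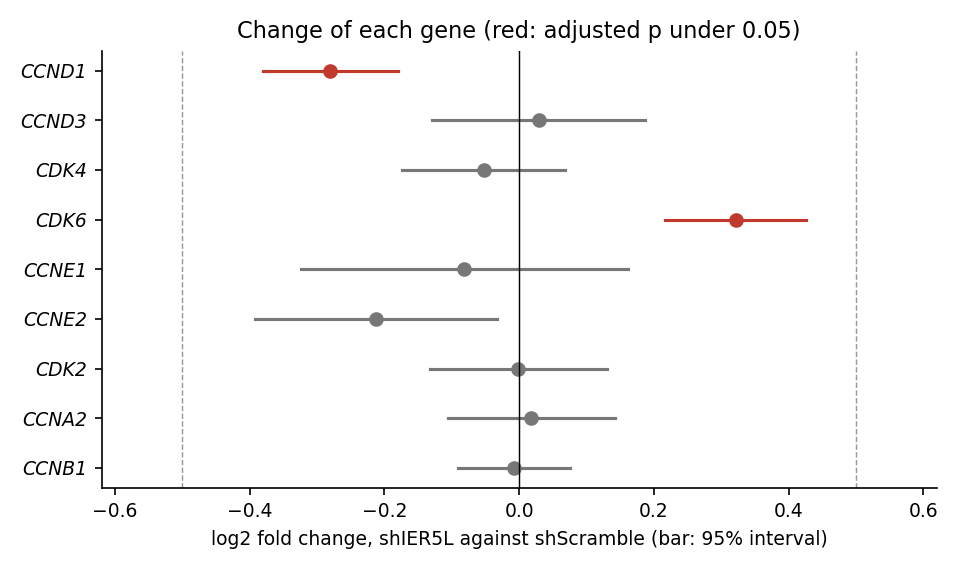
Log2 fold change of the 9 members tested, shIER5L against shScramble, with 95% intervals from edgeR's quasi-likelihood fit. Red marks an adjusted p under 0.05, and dashed lines mark the fold change threshold of 0.5. CCND1, at -0.28, and CDK6, at 0.32, lie on opposite sides of 0 and inside the dashed lines.

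The patterns most like those of the members were looked for over the 8 samples, as the smallest root mean square difference between log2 CPM values centred on each gene. For CCND1 the nearest of all genes tested was MPP3, at 0.0341, and for CDK6 it was NPEPPS, at 0.0254, which had a log2 fold change of 0.32. For CCNE2 it was MYNN (0.0648), for CCND3 PTGES (0.0264), for CCNE1 ASMTL (0.0471) and for CDK4 MTCH1 (0.0177). For CDK2 it was CTTNBP2NL (0.0298), for CCNA2 UTP23 (0.0267) and for CCNB1 IFT57 (0.0130). Within the members and the pathway lists, the nearest gene to CDK6 was CCNG1 (0.0520), to CCND1 TYMS (0.0764), to CCNA2 CCNB1 (0.0550), to CDK4 TFDP1 (0.0471), to CDK2 CCNY (0.0446), to CCNB1 E2F3 (0.0319), to CCNE1 CDK12 (0.115), to CCNE2 CCNK (0.0945) and to CCND3 CDK16 (0.0699). For CCNB1 the distance to E2F3 was no smaller than its own spread around its mean over the samples (0.0313).

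Around these genes, 73 others of the pathway were followed in 7 lists, and 71 of them were tested. In all, 2 rose, 1 fell and 68 did not pass the test, so that 4.23% were called against 3.93% of all genes tested. None was a DEG. At an unadjusted p under 0.05 there were 20 of 71, against 16.5% of all genes tested. DESeq2 and edgeR's likelihood ratio and exact tests called 5 in place of 3, and each of the other scalings called 2. The median log2 fold change of the 71 was 0.00, with 36 above and 35 below 0.

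Among the 13 pocket protein, E2F and DP genes, RBL1 fell and the other 12 did not pass the test. RBL1 encodes p107, a pocket protein that binds E2F factors and is a substrate of the D-type cyclin kinases. It had 95.1, 92.5, 96.4 and 96.6 CPM with shScramble, against 71.2, 67.3, 77.4 and 78.5 with shIER5L, with no overlap. The log2 fold change was -0.37 (SE 0.0557, adjusted p = 0.00107 in edgeR's quasi-likelihood test), and the call was kept in all 19 alternatives. The list had a median log2 fold change of -0.04, with 9 of 13 genes below 0, against 49.4% of all genes tested. At an unadjusted p under 0.05 there were 6, against 16.5%, and they went both ways. E2F5 (0.18) and E2F7 (0.14) were above 0, and RBL1, E2F2 (-0.46), E2F8 (-0.52) and TFDP1 (-0.10) below. E2F8 was called in 5 and E2F2 in 3 of the 19 alternatives.

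CCNG1 rose, the only call among the 21 transcriptional and other cyclin and CDK genes tested. It encodes cyclin G1, a p53 target known to bind B' subunits of PP2A, and had 173.0, 153.7, 149.4 and 167.1 CPM with shScramble, against 190.2, 179.4, 204.6 and 203.0 with shIER5L. The conditions did not overlap, and the log2 fold change was 0.27 (SE 0.0563, adjusted p = 0.0112 from the same test). The call was lost without shScramble replicate 2, without shScramble replicate 3 and without shIER5L replicate 3. In the same list CCNC was at 0.22 (adjusted p = 0.0954 from the same test) and was called in 3 of 19 alternatives. Among the 10 genes of cyclin and inhibitor degradation, USP28, which encodes a deubiquitinase that counters FBXW7, rose from 59.9 ± 3.07 to 69.6 ± 3.46 CPM (SD, n = 4 each), which gives a log2 fold change of 0.22 (adjusted p = 0.0455 from the same test). It was called in 8 of 19 alternatives.

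The other lists held no call in any alternative. Of 7 CDK inhibitor genes, 5 were above 0 and 2 below, where 49.4% of all genes tested were below 0. The median log2 fold change of this list was 0.03. The smallest unadjusted p belonged to CDKN1B, which encodes p27 and had a log2 fold change of 0.24 (adjusted p = 0.0957), and to CDKN2C, which encodes the INK4 protein p18 (0.14, adjusted p = 0.220, edgeR's quasi-likelihood test for both). Of 5 E2F target enzymes of nucleotide synthesis, 4 were below 0, against 49.4% of all genes tested. Log2 fold changes were -0.28 for TYMS (adjusted p = 0.150) and -0.13 for RRM2 (adjusted p = 0.157, same test). An unadjusted p under 0.05 was found for 3 of the 5, against 16.5% of all genes tested. Of the 2470 exon bases of TYMS, 648 are shared with TYMSOS or ENOSF1. Among 10 genes that activate CDKs or set their inhibitory phosphorylation, CDC25B was at -0.16 and CKS2 at 0.10. Among 5 tested genes of other cell cycle cyclins and CDKs, CCNB2, a partner of CDK1, was at 0.08 and CDK3 at -0.62 with at most 39 counts in a sample, and most of the exon length of CDK3 is shared with a readthrough gene.

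**Figure D5:**
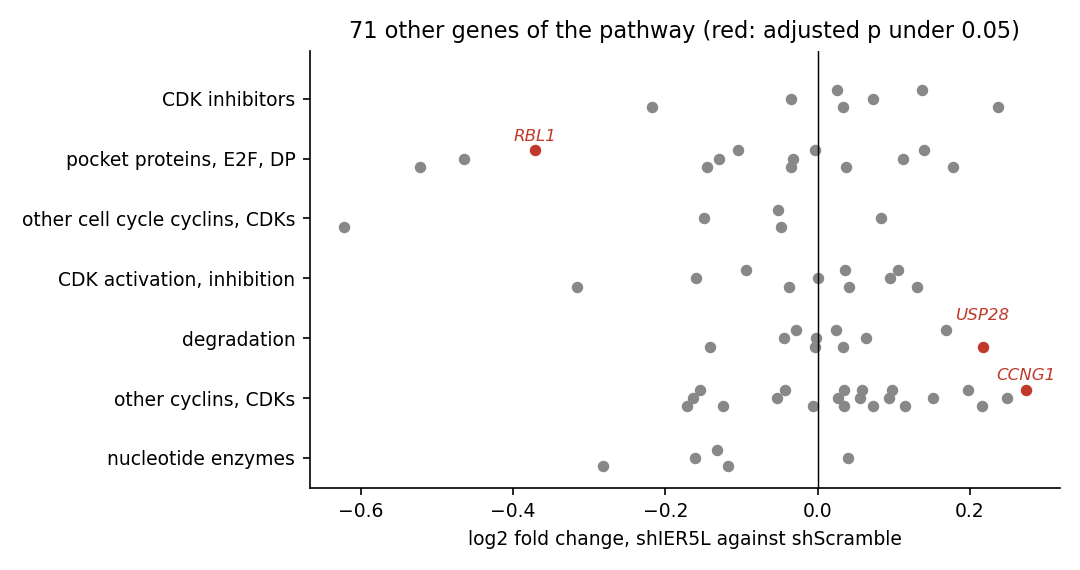
Log2 fold changes of the 71 tested pathway genes outside the members, shIER5L against shScramble, by list. Each point is a gene, and red marks an adjusted p under 0.05. RBL1 (-0.37), USP28 (0.22) and CCNG1 (0.27) are the 3 genes called.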

How the data were processed

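RNA-seq of PC3 cells was available for 4 shScramble and 4 shIER5L samples, grouped and numbered by their titles. The authors deposited raw counts per Ensembl gene: per the file headers, the paper's methods and the submitters' processing notes, reads were aligned to hg38 with STAR 2.7.5c, samtools 1.15 removed PCR duplicates, and featureCounts 2.0.3 counted primary alignments over exons, without strand and one by one for the reads of a pair (a median of 65.6% of counts from 1 to 20 were even, so independent fragments are fewer than counts). The deposited table also gives the gene length, another value used here, to express CPM per kb. The annotation version is not given in the sources used here. The methods name a ribosomal RNA depletion kit and the labels an mRNA kit, both stranded.

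Genes were filtered with filterByExpr (16959 kept), given TMM factors and tested in R 4.3.3 by the quasi-likelihood functions glmQLFit and glmQLFTest (edgeR 4.0.16, condition as the only term, Benjamini-Hochberg adjustment). SEs are the absolute log2 fold change over the square root of F, and intervals use its t quantile. The fit was also run on simulated counts drawn independently for each sample. These lack reads of a pair counted one by one, so they are no check of the p-values for these data. The members and lists were chosen with earlier results of these data known. Named in the text were all members, IER5L, and list genes at an adjusted p under 0.05 or, in lists without one, the 2 of smallest p. Each member's nearest gene, the pocket protein list genes at an unadjusted p under 0.05 and CCNC, which was called in some alternatives, were also named. Of the table's identifiers, 56948 matched a symbol. Replicate pairs of one condition differed more than independent reads would (chi-square over degrees of freedom 2.82 to 11.6). Counting both reads of a pair raises this value by itself. It was lowest for shScramble replicates 2 and 3 (2.82) and 1 and 4 (3.43). Among shIER5L pairs it was lowest for replicates 1 and 2 (3.33) and 3 and 4 (4.17), and highest for 2 and 4 (11.6). Alternatives were other scalings, filters and tests (limma 3.58.1, DESeq2 1.42.0), a replicate block, halved counts and each sample left out.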

Additional observations from a re-analysis of the deposited data

Results flagged for a closer look

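Over the 10 members and IER5L, 22 sets of 4 samples were examined for 1 sample far from the other 3, which chance gives in about 1 of 20, and 2 stood out. CCND1 in shScramble replicate 1, at 309.1 CPM, lay below the next sample, at 334.9, and still above every shIER5L sample. CCNB1 in shScramble replicate 4, at 301.0 CPM, lay below the next, at 311.7. Without these samples the log2 fold change of CCND1 was -0.31 and that of CCNB1 was -0.02.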

How the results depend on the processing

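The 2 members called, CCND1 and CDK6, were the same in all 19 alternatives of the call, with log2 fold changes between -0.31 and -0.26 and between 0.29 and 0.35, and 0 members were DEGs in all 20, among them glmTreat with the threshold of 0.5 in the test. The pathway genes at an adjusted p under 0.05 numbered 5 with the likelihood ratio test, the exact test and DESeq2 in place of 3. They numbered 2 with each of the other scalings, where USP28 was not called, and 4 with no filter on low counts. The replicate block gave 3, with CCNC in place of USP28. With 1 sample left out they numbered 1 to 4 (RBL1 alone without shScramble replicate 2, shScramble replicate 3 or shIER5L replicate 3). Among members near 0, 4 changed sign: CDK2 was at 0.0015 with voom, 0.0016 with the replicate block and between -0.0375 and 0.0528 with 1 sample left out, where CCND3 lay between -0.0144 and 0.0751, CCNA2 between -0.0182 and 0.0688, and CCNB1 between -0.0225 and 0.0108. For these the cause was not tested. Same-numbered samples showed little shared deviation (correlations from -0.0478 to 0.144, with 3 of 8 samples closest to their own number). So few correlations cannot settle whether the numbers pair the samples. The replicate block left the same 2 members called, and with it the adjusted p of IER5L in edgeR's quasi-likelihood test was 0.00148. In the order by level, 4 members changed place with transcript lengths and 2 with exon length free of shared bases, a choice made after seeing the data. CCND2 could not be compared at this depth.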
